A study of Mus musculus with 13 samples.

Results

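The regions described here are the narrower promoters that carried acetylated histone H3 in every library of LβT2 cells. H3K27ac peaks of 4 libraries were merged wherever they shared at least 1 bp, which gave 53008 regions. A region was kept when all 4 libraries had a peak in it, when the merged width was under 5000 bp, and when the centre of at least 1 of its peaks lay within 1000 bp of a transcription start in the deposited annotation. This left 7660 promoters, 14.5% of all regions and 31.5% of the 24356 regions with a peak in all 4 libraries. They were thus selected on H3K27ac, and their acetylation is described below without any test. The other regions with a peak in all 4 libraries were 267 promoter domains of 5000 bp or more and 16429 distal regions, whose peaks were all centred further than 1000 bp from a start. A further 2501 promoter regions had a peak in 1 to 3 libraries.

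Chromatin immunoprecipitation and sequencing (ChIP-seq) was made on LβT2 cells (LbT2 in the labels), a mouse line derived from pituitary gonadotropes, the cells that make luteinising and follicle-stimulating hormone. The line had been stably transduced by lentivirus with a cassette for constitutive GFP and for doxycycline-inducible FLAG-tagged mouse FOXL2, so vehicle and activin cells alike carried it, and FOXL2 here means the induced, tagged protein. All cells received doxycycline for 48 h and were kept for 2 h at 2% serum. Vehicle or activin A at 1 nM then followed for 1 h. Antibodies to SMAD2/3, to the FLAG tag and to H3K27ac gave 12 libraries, 2 per treatment and antibody, and each sample was a pool of 3 plates. The labels do not say whether the duplicates are separate cultures grown at different times, so p-values measure only the spread between these samples. A Protein-A control sample is described and was not analysed here, so no background measured in the same way stands beside the values.

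A promoter is the stretch around a transcription start where RNA polymerase II and the general transcription factors assemble. Acetylation of lysine 27 on histone H3, laid down by the p300 and CBP acetyltransferases, marks the nucleosomes that flank active promoters and active enhancers. Many mammalian promoters lie in CpG islands and serve genes used by nearly every cell type, whereas enhancers further off tend to differ between cell types. FOXL2 is a forkhead transcription factor of gonadotropes and of the ovary. SMAD2 and SMAD3 are phosphorylated by activin receptors and move to the nucleus, where they bind DNA with partner factors, FOXL2 among them.

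Promoter sequences of 8 of the named genes are printed first, because they show the range of base composition behind these promoters. Each is the 250 bases before the gene's start in RefSeq's GRCm38.p6 table, 5′ to 3′ on the gene's strand, in lower case. Capitals mark matches, on either strand, to any of 9 motifs. Common promoter elements were the box bound by the TATA-binding protein, searched as TATAAA, the box bound by NF-Y, searched as CCAAT, and the GC box bound by SP factors, searched as GGGCGG. Sites of other factors were searched as CCGGAAG for the ETS family, as GCGCATG for NRF1, as TGACGTC for the cAMP response element, as AAGATGG for YY1, as GTCTAGA for SMAD proteins and as GTAAACA for forkhead proteins. Eif4a2 had the highest mean H3K27ac rank and Rab24 the lowest. Gm15401 and Slc22a27 were among the promoters whose ranks differed most between treatments, in opposite directions, and Metrn ranked higher with vehicle. Gabarapl2 had a SMAD2/3 peak in the activin libraries only, Zcchc8 had some of the strongest FOXL2 peaks, and Rheb had FOXL2 only in the activin libraries.
Eif4a2, chr16:23107218-23107467, + strand: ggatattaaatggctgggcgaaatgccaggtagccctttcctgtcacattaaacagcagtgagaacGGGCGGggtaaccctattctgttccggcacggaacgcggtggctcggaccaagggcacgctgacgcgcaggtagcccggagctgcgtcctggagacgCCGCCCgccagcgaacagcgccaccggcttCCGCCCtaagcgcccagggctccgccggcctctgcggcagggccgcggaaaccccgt
Rab24, chr13:55321981-55322230, - strand: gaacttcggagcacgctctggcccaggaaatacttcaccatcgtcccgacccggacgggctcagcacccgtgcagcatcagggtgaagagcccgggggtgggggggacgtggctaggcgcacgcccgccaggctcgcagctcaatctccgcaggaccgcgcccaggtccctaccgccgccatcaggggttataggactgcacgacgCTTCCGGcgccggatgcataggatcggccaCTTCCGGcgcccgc
Gm15401, chr6:72629038-72629287, + strand: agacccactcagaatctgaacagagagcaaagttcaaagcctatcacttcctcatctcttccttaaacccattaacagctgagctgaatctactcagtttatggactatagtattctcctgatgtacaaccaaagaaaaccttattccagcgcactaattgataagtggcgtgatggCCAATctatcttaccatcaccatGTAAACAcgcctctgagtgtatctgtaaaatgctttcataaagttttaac
Slc22a27, chr19:7966028-7966277, - strand: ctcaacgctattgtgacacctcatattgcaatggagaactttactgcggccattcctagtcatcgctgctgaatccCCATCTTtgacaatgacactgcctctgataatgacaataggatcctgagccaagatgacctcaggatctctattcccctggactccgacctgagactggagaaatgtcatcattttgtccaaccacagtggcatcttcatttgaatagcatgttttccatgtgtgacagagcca
Metrn, chr17:25797046-25797295, - strand: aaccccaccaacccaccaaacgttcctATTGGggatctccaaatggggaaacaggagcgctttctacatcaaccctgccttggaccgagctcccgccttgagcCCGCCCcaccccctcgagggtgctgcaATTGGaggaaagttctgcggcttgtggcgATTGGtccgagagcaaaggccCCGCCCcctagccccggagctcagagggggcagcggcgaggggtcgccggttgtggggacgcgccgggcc
Gabarapl2, chr8:111940453-111940702, + strand: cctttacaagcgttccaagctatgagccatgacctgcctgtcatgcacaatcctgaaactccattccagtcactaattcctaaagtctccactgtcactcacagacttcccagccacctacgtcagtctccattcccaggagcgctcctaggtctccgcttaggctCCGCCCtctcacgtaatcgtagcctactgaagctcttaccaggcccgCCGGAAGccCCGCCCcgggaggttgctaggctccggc
Zcchc8, chr5:123721045-123721294, - strand: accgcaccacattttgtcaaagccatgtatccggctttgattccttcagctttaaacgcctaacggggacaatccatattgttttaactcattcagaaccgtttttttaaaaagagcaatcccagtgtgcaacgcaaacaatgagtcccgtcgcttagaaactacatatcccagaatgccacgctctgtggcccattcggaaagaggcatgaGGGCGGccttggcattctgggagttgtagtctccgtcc
Rheb, chr5:24842362-24842611, - strand: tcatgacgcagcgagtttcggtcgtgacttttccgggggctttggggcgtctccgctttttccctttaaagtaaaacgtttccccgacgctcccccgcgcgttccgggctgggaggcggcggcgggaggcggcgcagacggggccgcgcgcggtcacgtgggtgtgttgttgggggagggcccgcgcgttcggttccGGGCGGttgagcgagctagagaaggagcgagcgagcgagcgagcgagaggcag
Rheb, with 37 CpG dinucleotides and 68% G+C, Eif4a2, with 27 and 66.4%, and Rab24, with 27 and 68.8%, lie at the CpG-rich end. Gm15401, with 3 CpG and 39.6% G+C, and Slc22a27, with 4 and 46%, lie at the other. The sequence printed for Rab24 lies before the RefSeq start and outside its acetylated region. So do those of Acp6, with 17 CpG and 59.6% G+C, and of Slfnl1, with 4 and 51.2%, the others of the 3 lowest. For Acp6 the 2 annotations differ: the closest H3K27ac peak was centred at -3 bp from the deposited start, which lies inside the region. Gm15401 holds the forkhead letters and a CCAAT box, and Metrn holds 3 CCAAT boxes and 2 GC boxes. The acetylated region of Metrn begins at position 25797240, so it takes in only the 5′ end of the printed sequence, with the first CCAAT box. Both GC boxes and the other CCAAT boxes of Metrn lie outside it. A match of letters describes the sequence and is not a measured binding site.

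Across genes, promoters of this group were richer in CpG than those of genes with no acetylated promoter. A RefSeq promoter within 1000 bp of the region was found for 4625 genes of the group, out of 17492 protein-coding genes with a promoter in the table. The median ratio of observed to expected CpG was 0.781 at these genes, 0.612 at 135 genes with a promoter domain of 5 kb or more, and 0.338 at 11675 genes with no acetylated promoter. The last class means genes that were not the nearest gene of any H3K27ac peak centred within 1000 bp of a start. Of all 14618 protein-coding genes of that kind, 1059 had a RefSeq start inside a region acetylated in all 4 libraries. The share with a ratio of at least 0.6 was 77.8%, 51.1% and 31.2% in the same order, and 45.4% over all promoters. The median G+C content was 60.8% at genes of the group and 52% at genes without an acetylated promoter.

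Of the motifs, GC boxes and ETS letters were more frequent and TATA boxes less frequent at genes of the group than over all promoters of the same length. The GC box was present in 63.6% against 42.8%, the ETS motif in 17.7% against 9.21%, the NRF1 motif in 7.31% against 4.02% and the cAMP response element in 5.6% against 3.49%. The TATA box was present in 5.32% against 12.3%. CCAAT was present in 38.6% against 36.3%, YY1 letters in 4.8% against 4.12% and the SMAD letters in 1.86% of both. The forkhead letters were present in 1.77% against 2.59%. G+C content differed between these promoters as given above and its part in the motif shares was not tested. The all-promoter figures include the group itself. The 874 genes with a promoter acetylated in 1 to 3 libraries lay close to the group for some of these measures, with a GC box in 62.2%, a TATA box in 6.86% and a median G+C content of 60.4%, and lower for the ETS motif, at 12.6%.

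The promoters of the group were short. Merged widths ran from 223 to 4998 bp with a median of 1255 bp and quartiles of 777 and 1856 bp. The median was 1912 bp for the distal regions and 6624 bp for the promoter domains of 5 kb or more. In each library 89.3% to 92.1% of the promoters were a single peak, and 6037 (78.8%) were a single peak in all 4. The H3K27ac peaks in them covered between 8.34 and 9.26 Mb per library, out of 11.1 Mb of merged width. Just inside the width limit lay the promoters of Anp32a (4998 bp), an acidic nuclear phosphoprotein, Ppp2r2b (4993 bp), a regulatory subunit of protein phosphatase PP2A, and Nek1 (4972 bp), a protein kinase. Just outside lay Fzd4 (5005 bp), a WNT receptor, Cacnb2 (5008 bp), a calcium channel subunit, and Gm26661 (5011 bp). Of these 6, all but Nek1 had H3K27ac percentiles, as defined further on, of 89.3 or more in every library.

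**Figure D1:**
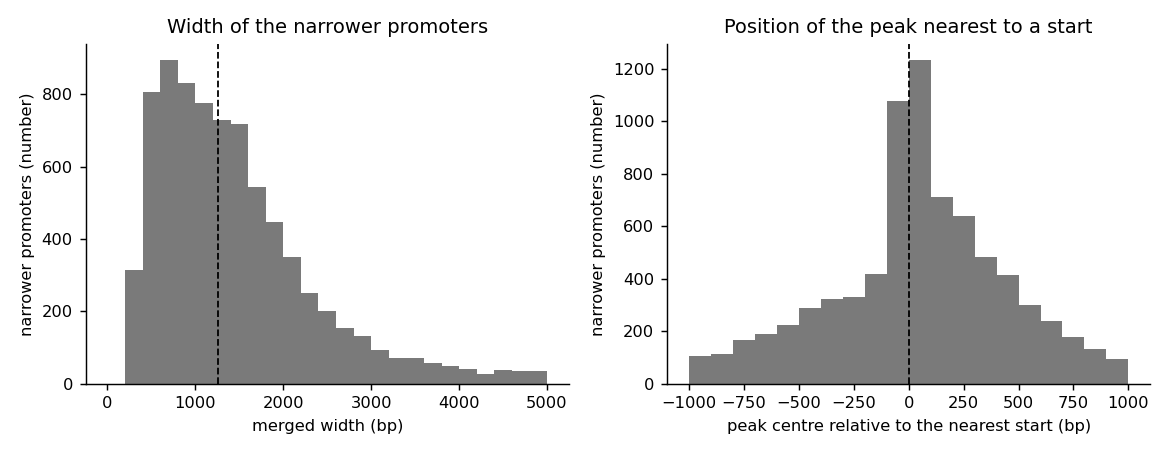
Left, number of narrower constant acetylated promoters by merged width in bp, with the median of 1255 bp as a dashed line. Right, number by distance in bp from the nearest start (dashed line) to the centre of the H3K27ac peak closest to it, where positive values are downstream. Widths fall off towards 5000 bp, and the centres gather around the start with more of them downstream.

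Acetylation sat beside the start as often as on it. The annotated start lay under an H3K27ac peak at 4036 (52.7%) and 3821 (49.9%) promoters in the vehicle libraries and at 3991 (52.1%) and 3841 (50.1%) in the activin libraries. It was covered in all 4 libraries at 3084 promoters (40.3%) and in none at 2935 (38.3%). The covered ones had a median width of 1647 bp and the uncovered ones of 750 bp. For the peak nearest to the start in each promoter, with its centre within 1000 bp, that centre lay downstream in 58%, 56.7%, 58.6% and 59.4% of promoters, in the order vehicle 1, vehicle 2, activin 1 and activin 2. At 523 genes regions of the group were centred both upstream and downstream of the nearest start, with no peak covering it. Thus 1 gene can hold 2 regions of the group. For genes with several annotated starts it was not checked that both sides refer to the same one. In all, 6969 genes were named by the deposited annotation, 6280 with 1 such promoter and 687 with 2.

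The genes at these promoters were mostly protein-coding. A region is called here by the gene with the nearest start, which need not be the gene it serves. By the type of that gene, 6403 (83.6%) were protein-coding, 299 (3.9%) long intergenic noncoding RNAs, 288 (3.76%) antisense transcripts and 137 (1.79%) microRNA genes. A RefSeq start lay inside 3488 of the regions. In 601 of these (17.2%) a pair of genes on opposite strands started within 1000 bp of each other, an arrangement known as a divergent or bidirectional promoter, against 11 (7.43%) of 148 domains of 5 kb or more with a start inside. The number per 100 genes ran from 29.3 on chromosome 7 to 45.8 on chromosome 18 among autosomes, with a median of 36.5.

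Genes that every cell uses often had such a promoter. Of all 21900 protein-coding genes, 5985 (27.3%) had one. Over 13 lists of widely expressed genes together the count was 410 of 678 (60.5%), against that 27.3%. By a different condition, a RefSeq start inside the region, the shares were 41.6% and 16.9%. The lists were chosen with earlier results of these data known, and their shares are a description. Genes are counted by the start nearest to each peak. A start inside such a region can thus go uncounted where another gene's start is nearer. Of the 3488 regions with a RefSeq start inside, 763 held the starts of 2 or more genes. A start not counted here can also lie in an acetylated region whose centre is over 1000 bp away.

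Genes of protein synthesis and energy metabolism are taken first. Cytosolic ribosomal protein genes had such a promoter in 68 of 86 cases (79.1%), oxidative phosphorylation genes in 62 of 86 (72.1%), aminoacyl-tRNA synthetases, which charge transfer RNAs, in 25 of 37 (67.6%), mitochondrial ribosomal proteins in 51 of 78 (65.4%) and translation initiation factors in 34 of 56 (60.7%). Percentiles below rank a promoter's H3K27ac by the authors' −log10 q among the 24356 regions with a peak in all libraries, within each library, with 100 for the strongest. Rpl19, a protein of the large ribosomal subunit, stood at 95.6 and 95.8 with vehicle and at 95.8 and 97.5 with activin. Ndufa4, a mitochondrial protein of the respiratory chain, stood at 96.3 and 97.6 with vehicle and at 95.5 and 95.6 with activin. Mrpl11, of the mitochondrial ribosome, stood at 98.1, 94.7, 97 and 95.2 at a width of 630 bp. These are among the highest ranks of their lists, where the scale leaves little room to differ, and Rps19, a protein of the small subunit named after its values were seen, stood at 83.8 and 76.9, then 75 and 28.9. The median over a list's promoters ran lower, at 53.2 for cytosolic ribosomal proteins, 71.4 for oxidative phosphorylation and 57.4 over all protein-coding genes of the group.

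For the machinery of gene expression, replication and protein turnover, the shares were 34 of 54 (63%) for the spliceosome, 27 of 43 (62.8%) for RNA polymerase II and Mediator, 26 of 48 (54.2%) for the proteasome, 21 of 40 (52.5%) for DNA replication and 16 of 33 (48.5%) for ubiquitin-conjugating enzymes. Pcna, the sliding clamp of DNA replication, stood at 90.1 and 97 with vehicle and at 94.5 and 92.9 with activin. Psmc3, an ATPase of the proteasome, stood at 94.1 and 93.4, then 95.7 and 97.7. Of membrane traffic genes, 28 of 59 Rab GTPases (47.5%) and 7 of 20 vesicle coat genes (35%) had such a promoter. For enzymes and readers of acetylation the share was 11 of 38 (28.9%), close to that of all protein-coding genes.

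Genes used by few cell types were rare among these promoters. Of 1459 olfactory and vomeronasal receptor genes, 1 had such a promoter (Vmn1r4, 0.0685%), and so did 4 of 74 chemokine and interleukin genes (5.41%). None of 53 keratin genes, 39 Hox genes, 9 genes of other pituitary lineages or 6 genes of other tissues had one. The pituitary genes at 0 included Gh, Prl, Pomc and Tshb, hormones of the other lineages, for which no acetylated promoter was found at all. Among the genes of other tissues, Myh6, a cardiac myosin, had a promoter domain of 7359 bp and Pecam1, an endothelial adhesion protein, an acetylated promoter in fewer than 4 libraries.

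**Figure D2:**
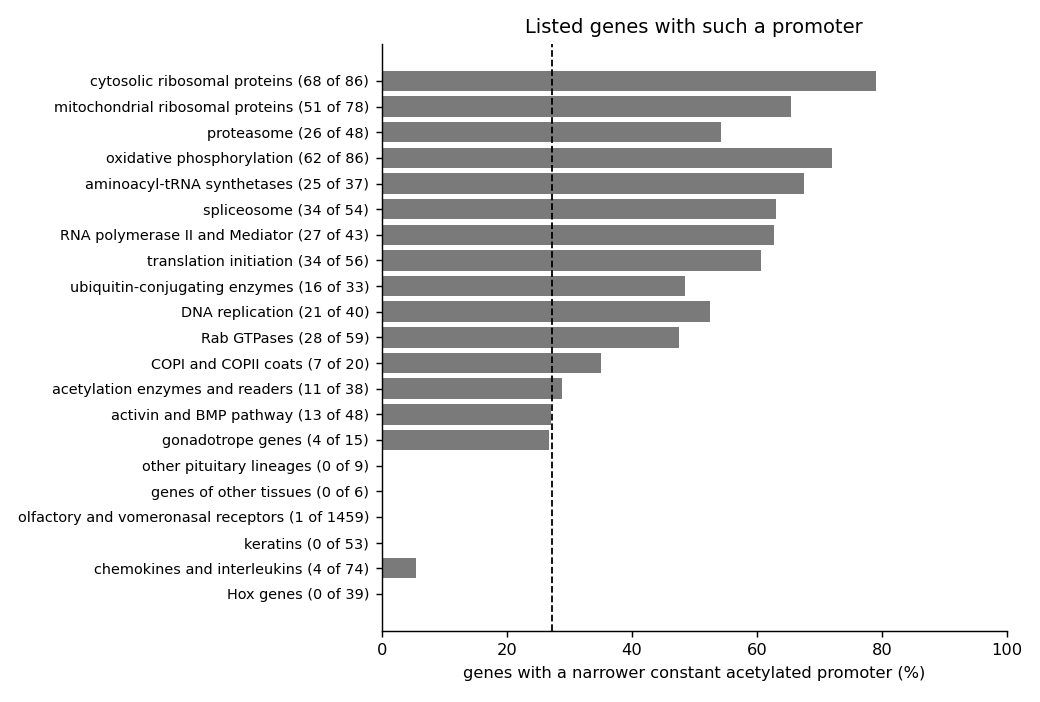
Percent of the genes in each list that had a narrower constant acetylated promoter, with the counts beside the names and the 27.3% of all protein-coding genes as a dashed line. Bars are shares of genes and carry no error. Lists of widely expressed machinery lie to the right of the line, and receptor, keratin and Hox genes lie at or near 0.

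Of 15 gonadotrope genes, 4 (26.7%) had a promoter of the group, close to the 27.3% of all protein-coding genes. Lhb, the β subunit of luteinising hormone, had H3K27ac percentiles of 42.9 and 49.3 with vehicle and of 82.1 and 68.8 with activin, so the activin libraries were both higher. Nr5a1, the nuclear receptor SF-1, stood at 61.1 and 76.8 with vehicle and at 85.1 and 64.5 with activin, and the treatments overlapped. Otx1, a homeobox factor, stood at 32.8 and 46, then 32.4 and 40.8. Egr1, the immediate-early factor that acts on Lhb, stood at 47.6 and 40.4, then 58.8 and 34.5. Chga, chromogranin A, had a domain of 21024 bp instead. The starts of Cga, Gnrhr, Gata2, Isl1 and Scg2 lay in regions acetylated in all libraries whose peaks were centred further off, and Fshb, Foxl2 and Lhx3 were among those with neither.

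The activin and BMP pathway list had 13 of 48 genes (27.1%) with a promoter of the group, again close to the 27.3% of all protein-coding genes. Both activin percentiles exceeded both vehicle percentiles at 9 of the 13 and lay below them at 1, while the same held for 27.9% and 30.4% of all regions with a peak in every library. Only 1 of the 13, Smad7, which was not among the 9, had a SMAD2/3 peak in any library. In the whole group 3.92% of promoters had one. Among receptors, Acvr2b, a type II activin receptor, stood at 14.1 and 8.47 with vehicle and at 52.2 and 69.7 with activin. Acvr1b, the type I activin receptor ALK4, stood at 78.4 and 66.6, then 92.4 and 91.6. Both were higher with activin without overlap of the treatments. Bmpr1a, a BMP receptor, stood at 69.4 and 64.8, then 71.6 and 87.2. The coreceptor gene Tgfbr3 stood at 45.7 and 45.9, then 56.7 and 64.7.

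Among ligands and signal carriers of the pathway, Inhbb, the inhibin and activin βB subunit, stood at 51.7 and 34.1 with vehicle and at 72.5 and 66.4 with activin. Inha, the inhibin α subunit, overlapped at 87 and 70.9, then 84.7 and 86.9. Smad5, which carries BMP signals, stood at 66.2 and 71.7, then 92.1 and 84. Smad2, which carries activin signals, overlapped at 30.2 and 29, then 41.3 and 27.7. Zfyve9, the SARA adaptor that presents SMADs to receptors, stood at 41.1 and 38.4, then 60.5 and 50.6.

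Of the feedback genes, Skil, the corepressor SnoN, showed the largest shift of the list, from 5.87 and 0.719 with vehicle to 58.1 and 72.6 with activin. No SMAD2/3 or FOXL2 peak overlapped that region, which is 872 bp wide. Smad7, the inhibitory SMAD, was near the top in every library at 98.6, 99.2, 100 and 98.7, so its rank had little room to rise. Smurf2, a ubiquitin ligase of the pathway, stood at 20.5 and 21.3, then 31.3 and 23.1. Id1, a target of BMP signalling, stood at 93 and 93, then 93 and 91.5, the only gene of the 13 lower in both activin libraries, in 1 of them by less than the rounding of these values.

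Over the whole group, 1730 promoters (22.6%) had a higher percentile in both activin libraries and 1827 (23.9%) a lower one. Among all regions with a peak in every library the shares were 27.9% and 30.4%. Since the rule used these libraries, nothing is read from the difference. With peaks ranked by fold enrichment the shares were 21% and 24.3%, and by length covered 22.1% and 18%. Each share needs 4 libraries in order, and leaving any library out raised it to between 33.5% and 40.1%. Percentiles of replicates differed by a median of 6.63 with vehicle and 7.55 with activin, and the median difference between the treatment means was -0.034.

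The promoters of highest mean rank were those of Eif4a2, an RNA helicase of translation initiation, at 99.8, 99.8, 99.9 and 99.8, and of Gm13782, Mir1894, the small nuclear RNA gene Rnu11 and the pseudogene Pgam1-ps2, at 99 or above in every library. Rnu11, the U11 RNA of the minor spliceosome, reached this rank with 571 bp. The lowest were those of Rab24, a Rab GTPase, at 0.916, 2.57, 0.177 and 2.04, of Acp6, a lysophosphatidic acid phosphatase, and of Slfnl1. The authors' fold enrichment was 10.1, 9.81, 11.3 and 10.4 at Eif4a2 and 2.83, 2.93, 2.63 and 3.03 at Rab24, in the order given above.

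Single promoters moved across most of the scale. Fanca, a Fanconi anaemia DNA repair protein, had the widest gap towards activin, from 6.44 and 7.72 with vehicle to 74.2 and 78 with activin. Its promoter region, chr8:123277012-123281061, had SMAD2/3 peaks in both activin libraries and in neither vehicle library. Gm27649, a small nuclear RNA gene, went from 0.328 and 0.985 to 70.4 and 67.1. Gm15401 went from 13.2 and 9.09 to 87.3 and 69, and had SMAD2/3 and FOXL2 peaks in the activin libraries only. Evc2, a ciliary protein of hedgehog signalling, went from 40.4 and 38.3 to 94.9 and 93.2, with SMAD2/3 and FOXL2 in every library. Dlk2, a relative of the Notch-pathway protein DLK1, went from 14.3 and 12.4 to 76.9 and 71 with neither factor. Ldlrad4, a membrane protein that restrains SMAD signalling, went from 23.8 and 21.6 to 79.6 and 81.1 with FOXL2 in every library and no SMAD2/3.

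In the opposite direction, Slc22a27, a solute carrier, went from 70 and 67 with vehicle to 7.66 and 18.5 with activin, and its FOXL2 peaks were present in the vehicle libraries only. Metrn, a secreted neurotrophic protein, went from 71.3 and 69.9 to 22.3 and 18.5. Lipg, endothelial lipase, went from 74.2 and 70.6 to 29.2 and 27.2. Sarnp, an mRNA export factor, went from 79.5 and 73.8 to 26.6 and 34.3. Nlrc3 and Cfap126 also ranked higher in both vehicle libraries, Nlrc3 at 84.3 and 84.7 against 45.5 and 46.4. At none of these 6 did a SMAD2/3 peak overlap the promoter, as was the case for 96.1% of the whole group. Of the 6 with the widest gap towards activin, 4 had SMAD2/3 in both activin libraries, against 1.76% of the group. Both sets of 6 were picked for their ranks, so these counts are a description.

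**Figure D3:**
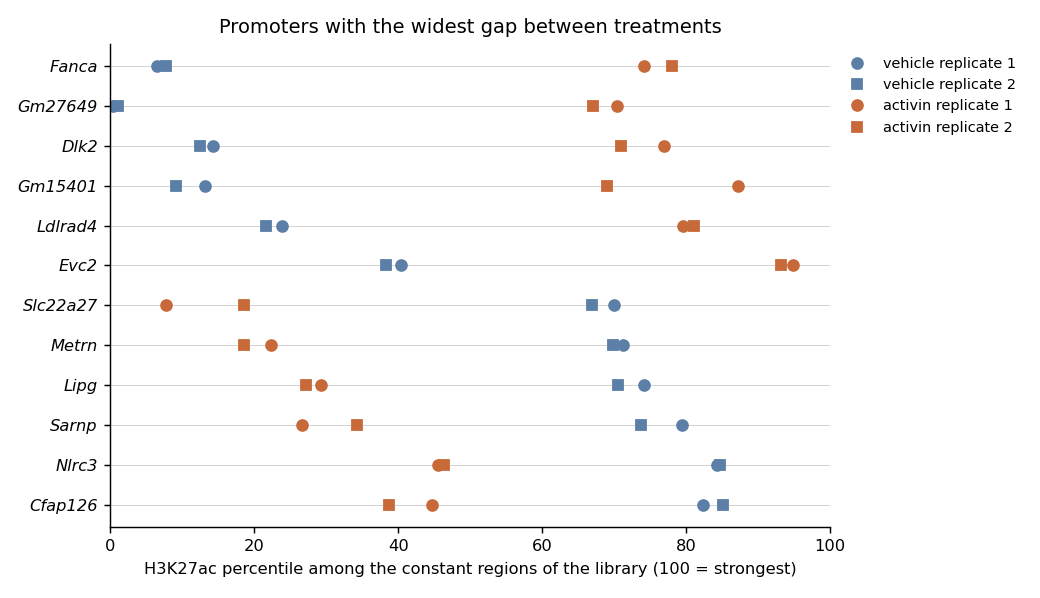
H3K27ac percentile, among the regions with a peak in every library, of the 6 promoters with the widest gap towards activin (top) and the 6 with the widest gap towards vehicle (bottom), 1 point per library. The points of each treatment lie close together and apart from those of the other, as the choice of these promoters fixes. Fanca moves from 6.44 and 7.72 with vehicle to 74.2 and 78 with activin.

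FOXL2 took no part in choosing the promoters. It was found at 1324 (17.3%) and 1942 (25.4%) of them with vehicle and at 1347 (17.6%) and 1761 (23%) with activin, where found means that a FOXL2 peak overlapped the region. The second replicate was higher in both treatments, and the treatments overlapped. Vehicle libraries averaged 21.3% ± 5.7 (SD, n = 2) and activin libraries 20.3% ± 3.82 (SD, n = 2). The difference was -1.03 percentage points, smaller than the spread between replicates, whose pooled SD was 4.86 (exact permutation test, two-sided, p = 1). Without vehicle replicate 2 the difference was 3, and without activin replicate 1 it was 1.67, so its sign rests on single libraries. With 2 libraries against 2, this test cannot give less than 0.33.

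FOXL2 was found at fewer of these promoters than of either other kind of constantly acetylated region, in each of the 4 libraries. At the distal regions the shares were 48.2%, 52.7%, 46.8% and 49.4%, and at the promoter domains of 5 kb or more 83.9%, 86.5%, 80.9% and 84.6%. The difference from the distal regions was -31, -27.3, -29.2 and -26.4 percentage points, a mean of -28.5 ± 2.01 (SD, n = 4), and from the wide domains -63.2 ± 2.46 (SD, n = 4). The exact sign-flip test gave p = 0.13 for each, the smallest value 4 libraries allow. Per length, the promoters held 126, 189, 128 and 169 FOXL2 summits per Mb, the distal regions 271, 295, 268 and 281, and the wide domains 260, 288, 260 and 275. The mean difference from the distal regions was -126 ± 19.2 and from the wide domains -118 ± 18 (SD, n = 4; exact sign-flip p = 0.13 for each). The wide domains, highest by share, thus lay below the distal regions per length. Width differs between the classes, and classes of equal width were not compared.

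FOXL2 peaks at these promoters were also weaker. The strongest peak in a promoter stood at a median percentile of 39.4, 37.3, 41.4 and 40.3 within its own list, and in a distal region at 68.8, 69, 69.7 and 69. The mean difference was -29.5 ± 1.54 percentiles (SD, n = 4; exact sign-flip p = 0.13). In all, the promoters, with 11.1 Mb of merged width, held 1.66% to 2.8% of the peaks of a FOXL2 list. The share expected from that length was not worked out, so these shares show neither excess nor lack. Of the FOXL2 peaks in them centred within 2000 bp of a start, 26.4% to 33.8% were centred within 250 bp of it.

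**Figure D4:**
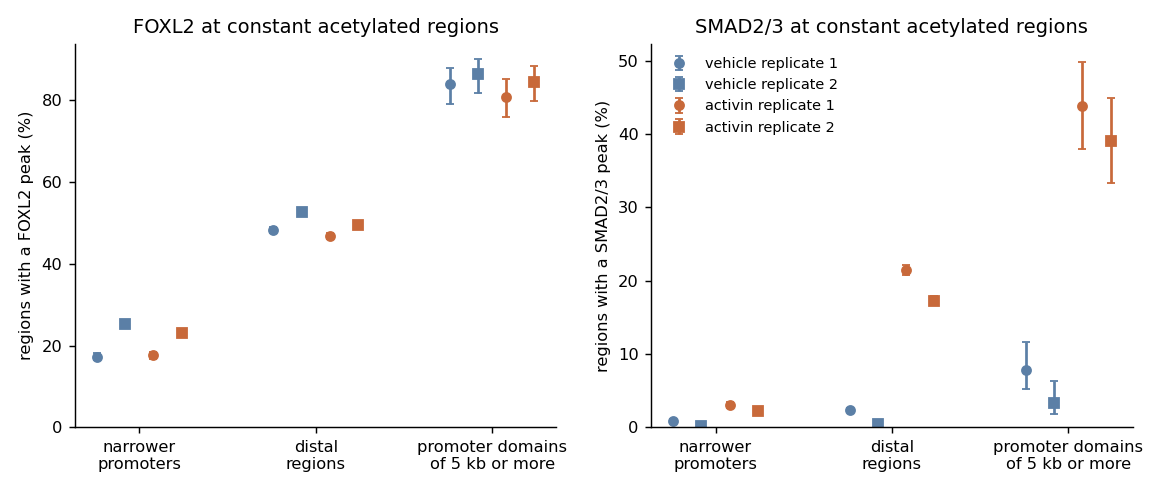
Percent of regions overlapped by a FOXL2 peak (left) and a SMAD2/3 peak (right) in each library, for the 7660 narrower promoters, the 16429 distal regions and the 267 promoter domains of 5 kb or more. Points are single libraries and bars are 95% Wilson intervals, which cover counting error only. The narrower promoters lie lowest in every library for both factors.

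Within the group, wider promoters held FOXL2 more often. In the narrowest quartile, up to 777 bp, FOXL2 was found at 5.01%, 9.66%, 5.33% and 8.09% of promoters. In the widest, from 1856 bp, it was found at 36.1%, 45.7%, 35.8% and 42.9%. Summits per Mb were higher as well, at 52.9, 103, 57.7 and 87 in the narrowest and 165, 222, 166 and 206 in the widest. Promoters in the highest quartile of H3K27ac rank held FOXL2 in 26.4%, 36.4%, 27.5% and 34.4% and those in the lowest in 11%, 16.9%, 10.5% and 14.8%. Those quartiles also differed in median width, 1778 against 839 bp.

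**Figure D5:**
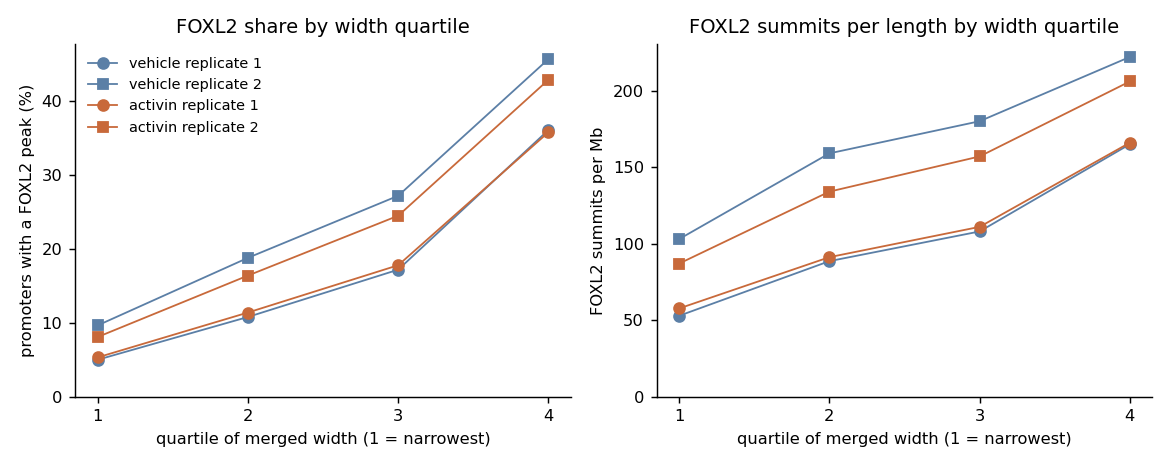
Percent of narrower promoters with a FOXL2 peak (left) and FOXL2 summits per Mb of merged width (right) by quartile of width, 1 line per library, 1915 promoters in each quartile. Every line rises from the narrowest to the widest quartile, and the second replicate of each treatment lies above the first.

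Promoters with FOXL2 in all 4 libraries numbered 926 (12.1%), against 31.7% of all regions with constant acetylation. FOXL2 was found in both activin and neither vehicle library at 79 (1.03%, against 1.4% of those regions) and in both vehicle and neither activin library at 76 (0.992%, against 1.79%). At 5224 (68.2%) no FOXL2 peak was found. The highest FOXL2 ranks lay at Mir6335, Sdc4, Gm22422, Zcchc8 and Gm38248. At Zcchc8, part of a complex that directs RNA to the exosome, the FOXL2 percentiles were 99.3, 99.8, 99.7 and 99.7, with H3K27ac at 74, 69.7, 64.5 and 70.8. At Sdc4, a cell-surface proteoglycan, FOXL2 stood at 99.8, 100, 99.7 and 99.7 while H3K27ac stood at 23.8, 36, 13.6 and 3.69. A top FOXL2 rank thus occurred beside acetylation ranks moderately above the middle of the scale and well below it.

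The FOXL2 peaks seen with activin only were strongest at Rheb, the GTPase that activates mTORC1, with percentiles of 87.6 and 84.3, at Platr32 with 81 and 81.2, and at Elac1, a transfer RNA endonuclease, with 74.8 and 77.2. H3K27ac at Rheb stood at 40.3 and 27.2 with vehicle and at 42.2 and 49 with activin. The FOXL2 peaks seen with vehicle only were strongest at Atp6v0e, a subunit of the vacuolar proton pump, with 64.5 and 73.7, at Hivep2, a zinc finger factor, with 61.4 and 51.1, and at Ube2f, a NEDD8-conjugating enzyme, with 43.4 and 64. Of genes with the forkhead letters in the 250 bases before their start, 42 of 82 (51.2%, 95% Wilson interval 40.6 to 61.7) had FOXL2 in at least 1 library at their promoter, and of those without them 30.8% of 4543 (29.5 to 32.2). For the SMAD letters the same shares of genes with SMAD2/3 were 3 of 86 (3.49%, 1.19 to 9.76) and 2.97% of 4539 (2.52 to 3.51). Each comparison runs over genes of the same libraries and is a description.

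SMAD2/3 was rare at these promoters. It was found at 70 (0.914%) and 15 (0.196%) with vehicle and at 229 (2.99%) and 173 (2.26%) with activin. Both activin libraries were higher than both vehicle libraries. Vehicle libraries averaged 0.555% ± 0.508 (SD, n = 2) and activin libraries 2.62% ± 0.517 (SD, n = 2). The difference was 2.07 percentage points, larger than the spread between replicates, whose pooled SD was 0.512 (exact permutation test, two-sided, p = 0.33, the smallest it can give). In all, vehicle SMAD2/3 lists counted 605 and 144 peaks, activin lists 7784 and 5970. With each list cut to the 144 strongest peaks the difference turned to -0.137.

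At the other regions the shares with activin were larger. Distal regions went from 2.37% and 0.53% to 21.5% and 17.3%, and promoter domains of 5 kb or more from 7.87% and 3.37% to 43.8% and 39%. The change at the narrower promoters differed from that at distal regions by -15.9 percentage points and from that at the wide domains by -33.7 (exact permutation p = 0.33 for each). Over the 4 libraries the share at the promoters differed from that at distal regions by -1.45, -0.334, -18.5 and -15 points, a mean of -8.82 ± 9.27 (SD, n = 4; exact sign-flip p = 0.13), with -5.6 when activin replicate 1 was left out. Per length it differed by -35.7 ± 38.9 summits per Mb (SD, n = 4; exact sign-flip p = 0.13), with -22.1 without that library. From the wide domains it differed by -21.9 ± 19.6 points (SD, n = 4; exact sign-flip p = 0.13). With each list cut to its 144 strongest peaks these differences shrank to -0.54 points, -1.74 summits per Mb and -3.06 points, in the same order.

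As part of the SMAD2/3 lists the promoters weighed more with vehicle. They held 11.6% and 10.4% of the vehicle peaks and 3.15% and 3.05% of the activin peaks, a difference of -7.9 percentage points (exact permutation p = 0.33). The few vehicle peaks also lay closer to the start: among peaks centred within 2000 bp of a start, 70.6% and 60% were within 250 bp of it, 48 of 68 and 9 of 15 peaks, against 31.7% and 28.7% with activin. The length of the lists differed with the treatment, as given above, and its part in these shares was not tested.

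SMAD2/3 was found in both activin and neither vehicle library at 109 promoters (1.42%, against 9.96% of all regions with constant acetylation) and in all 4 at 11 (0.144%, against 0.411%). Only Zbtb21 and Maged1 had it in both vehicle libraries and neither activin one, 2 promoters named after their values were seen. The widest width quartile held most of the activin signal, with SMAD2/3 at 8.41% and 6.42% of promoters against 0.522% and 0.522% in the narrowest. Of the 135 promoters with SMAD2/3 in both activin libraries, 111 (82.2%, 95% Wilson interval 74.9 to 87.8) also had FOXL2 in both. At distal regions it was 85.6% (84.2 to 86.9). Whether or not they had SMAD2/3, 15.6% of the promoters and 44.1% of the distal regions had FOXL2 in both activin libraries. The 135 were wider than the rest of the group, as given below, and wider promoters held FOXL2 more often. The 111 were 9.3% of the promoters with FOXL2 in both activin libraries, against 30.9% at distal regions.

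Promoters with SMAD2/3 in all 4 libraries and the highest ranks were those of Evc2, the noncoding 2700016F22Rik, Olfr1177-ps, Gm37886 and Smad7. At Evc2 the vehicle SMAD2/3 peaks stood at percentiles of 98.5 and 61.1, the activin peaks at 99.9 and 99.7. At Smad7, a known target of SMAD signalling, they were 86 and 45.1, then 95.4 and 96.9. Percentiles are ranks within lists of very different length and show no change between treatments. 2700016F22Rik differed from the others in having no FOXL2 peak and a width of 510 bp.

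The strongest SMAD2/3 peaks found with activin only lay at Fanca, Spire1, Gabarapl2, Clk4, Gm15401 and Gm26357. Gabarapl2, an autophagy protein of the ATG8 family, had SMAD2/3 percentiles of 91.3 and 94 and H3K27ac percentiles of 57.6 and 65.8 with vehicle against 87.7 and 88.6 with activin. Spire1, an actin nucleator, had 93 and 94.6 for SMAD2/3, FOXL2 at 98.8 to 99.8 in every library, and H3K27ac at 19.9 and 18.1, then 48.2 and 41.4. Clk4, a kinase of splicing factors, had 93.8 and 90.7 for SMAD2/3 and H3K27ac at 88.1 and 87.3, then 91.8 and 96.3. At all 6 the H3K27ac percentiles were higher in both activin libraries, and 5 of the 6, all but Gm15401, had FOXL2 in every library. Eif4a2 and Lhb also had SMAD2/3 in both activin libraries only.

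Promoters with SMAD2/3 had higher acetylation ranks with activin more often than the rest of the group. Of the 135 promoters with SMAD2/3 in both activin libraries, 89 (65.9%) had a higher H3K27ac percentile in both activin libraries and 14 (10.4%) a lower one, while of the other 7525 promoters 21.8% were higher and 24.1% lower. The 135 were wide, with a median of 2737 against 1238 bp. In the widest quartile alone, 66.3% of 101 promoters with SMAD2/3 were higher, against 25.4% of 1813 without it. For FOXL2 the shares lay closer together: 27.6% of promoters with FOXL2 in all 4 libraries were higher in both activin libraries and 22% of those with none. The shares lower in both were 29.4% and 22.5%, so both directions were more frequent with FOXL2. These shares describe promoters in the same 4 libraries and were not tested.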

How the data were processed

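H3K27ac, FLAG-FOXL2 and SMAD2/3 ChIP-seq libraries (12 in all, of 13 samples described) were analysed as deposited peak lists, called per library. Bowtie2, MACS2, HOMER and GRCm38 (mm10) are named in the submitters' processing notes, without versions or settings. Per the file headers, HOMER's annotatePeaks gave the nearest start and gene. Each deposited peak carries the authors' score, the authors' fold enrichment, a linear ratio whose background is not described, and the authors' −log10 of p and q. Fold and −log10 q were used only to rank or filter peaks. The smallest deposited −log10 q was 1 to 1.01 for H3K27ac, and 1.3 to 1.78 for the factors. Reads were single-end and 50 bp long, per the labels' protocols. The depth reached is unknown, so no floor could be given.

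Lists were merged with python 3.11.15, numpy 2.4.6 and pandas 2.3.3, scripts that were tested on simulated peaks. Shares per library were compared by exact two-sided permutation over 6 labellings, and between region classes by an exact sign flip over 4 libraries. Gene symbols were matched to RefSeq for 6284 of 6403 protein-coding promoters (98.1%), and a RefSeq promoter entry was found for 4808 of 5985 genes (80.3%). Wilson intervals are at 95%.

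The promoters and the gene lists were chosen with earlier results of these data known. Named genes are the extremes of mean H3K27ac rank (5 highest, 3 lowest), of the gap between treatments (6 each way), of SMAD2/3 rank (5 in all libraries, 6 with activin only) and of FOXL2 rank (5, 3 and 3), the 3 on each side of the width limit, and the highest-ranked genes of each list with all of the activin and gonadotrope lists; of the last, only those that show the range are printed. Printed coordinates count from 1.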

Additional observations from a re-analysis of the deposited data

How the results depend on the processing

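Alternatives to the region limits, to the peak thresholds, to the length of the factor lists and to the set of libraries were tried for 12 results, 112 values in all. All 60 values of the 6 differences between the narrower promoters and other regions kept their sign. For the values that left out 1 library this was fixed in advance, since each difference was negative in all 4 libraries. The number of promoters was 7145 with a width under 3000 bp, 5920 with a distance of 500 bp or less, 6911 with peaks merged within 500 bp and 7216 with H3K27ac −log10 q of at least 2. It ran from 7740 to 7994 when presence was asked of 3 libraries. Leaving out libraries, the FOXL2 difference between treatments ran from -5.07 to 3 percentage points, and that of SMAD2/3 from 1.7 to 2.43. With lists of equal length the SMAD2/3 difference was -0.137 (exact permutation p = 0.33). The lists then hold equally many peaks, and the cause of the change of sign was not tested. Its difference from distal regions was then -0.54 and from promoter domains of 5 kb or more -3.06 percentage points, and per length -1.74 summits per Mb. The share of promoters with a higher H3K27ac percentile in both activin libraries was 21% by fold enrichment and 21.4% with a distance of 500 bp or less, and that with a lower one was 18% by length covered. Without single libraries the first ran from 33.5% to 40.1% and the second from 35.8% to 39.9%, since fewer libraries must then be in order. The share of widely expressed genes with such a promoter was 54.7% with a distance of 500 bp or less, and 41.6% by a RefSeq start inside the region, an alternative chosen after seeing the data.

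The labels do not pair the replicate numbers of the treatments. Differences between replicates correlated between treatments at -0.0646 for H3K27ac over the promoters. For FOXL2 the value was 0.184, over the 926 promoters with a peak in all 4 libraries only. The second replicate had the higher FOXL2 share in both treatments. Between libraries of equal number the FOXL2 difference had an SD of 1.88, against the pooled SD of 4.86 within treatments. Whether equal numbers share a source was not tested, and the main tests left the samples unpaired. With a replicate block the differences were -1.03 for FOXL2 (exact sign flip over 2 pairs, p = 1) and 2.07 for SMAD2/3 (p = 0.5, the smallest it can give).

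Reads per library are unknown, which limits what the absence of a peak shows.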
